A study of Mus musculus with 2 samples.

Results

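Restriction factors are cellular proteins that act directly on viruses and mobile elements. Some hold new particles at the cell surface, some bind or destroy foreign RNA, and some edit reverse transcripts or starve reverse transcription of nucleotides. Several of their genes are known targets of interferon, and several also restrain endogenous retroelements, which in somatic tissue are kept silent largely by DNA methylation. The 10 genes described here, a gene set of antiviral and retroelement restriction factors, were taken by name from the authors' table with gene symbols: Bst2, Apobec3, Samhd1, Trex1, Mov10, Zc3hav1, Mx1, Mx2, Rsad2 and Trim25. All 10 were found among 23356 gene symbols, on 18 of 30608 transcript rows.

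The data were RNA-seq libraries from mouse retina dissected at postnatal day 15, with 1 control and 1 mutant library. Both genotypes were flox/flox at 3 loci that encode DNA methyltransferases, Dnmt1, Dnmt3a and Dnmt3b. The control was negative for Rx-Cre, and the mutant was Rx-Cre positive, with Cre driven by regulatory sequence of the retinal and eye-field gene Rx. Such a driver acts in cells of the retinal lineage, and microglia and blood vessel cells of the tissue come from other lineages. Values are given in the order control (without Cre), then mutant (with Cre). The strain is labelled C57BL/6 in the control but C57BL/7 in the mutant, and the labels do not say how many animals or retinas went into a library. With 1 library per group no difference below has a replicate check, and no test between genotypes was run.

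Expression is given as FPKM, fragments scaled to transcript length and library size, summed over the transcripts of a gene. By the steps between the lowest values, each FPKM corresponded to some 48.4 fragments per kilobase for the control library and 56.0 for the mutant library. Ranges in brackets are 95% intervals from the fragments so recovered, and they cover counting error only, since amplified reads are not independent molecules. A gene was called measured at 1 FPKM or more in at least 1 library, and higher or lower when the log2 ratio reached 1 or -1 after 1 FPKM was added to both values, a scale that understates the change of low genes. The targeted genes checked the labels: Dnmt1 had 21.7 FPKM without Cre and 11.6 with Cre (53.5% of the control), Dnmt3a 87.4 and 56.0 (64.1%) and Dnmt3b 1.03 and 0.827 (80.4%). Among retinal marker genes 15 were measured. Lens and pigment epithelium markers, from tissues that border the retina, had summed levels of 78.3 and 1.93 FPKM and of 85.5 and 2.86 FPKM. Their part in the results below was not tested.

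The promoters are shown first because interferon acts on such genes through the interferon-stimulated response element (ISRE), whose core was searched as GAAANNGAAA on both strands. RefSeq promoter windows (GRCm38.p6, 250 bases before to 50 after a start) existed for 8 of the 10 genes, in 11 windows, with none matched for Mx1 and Mx2. The core was present in 3 of the 11 windows, those of Bst2, Rsad2 and Apobec3, and in 3.44% of all 32851 windows. The 250 bases before the start are printed for these 3, 5′ to 3′ on the strand of the gene, with the core in capitals, and for Samhd1, whose window had no match. They lie at chr8:71537473-71537722 (minus strand), chr12:26456453-26456702 (minus), chr15:79892158-79892407 (plus) and chr2:157135097-157135346 (minus). The GENCODE models linked to the Samhd1 transcripts start at 157135222 and 157135265, inside the printed stretch. Only part of that stretch therefore lies before those starts, and Samhd1 is no full contrast.

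Bst2: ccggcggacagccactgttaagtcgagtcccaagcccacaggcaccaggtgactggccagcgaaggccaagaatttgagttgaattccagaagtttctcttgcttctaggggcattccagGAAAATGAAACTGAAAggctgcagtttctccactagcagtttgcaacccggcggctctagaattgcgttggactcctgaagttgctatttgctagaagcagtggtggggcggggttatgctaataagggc
Rsad2: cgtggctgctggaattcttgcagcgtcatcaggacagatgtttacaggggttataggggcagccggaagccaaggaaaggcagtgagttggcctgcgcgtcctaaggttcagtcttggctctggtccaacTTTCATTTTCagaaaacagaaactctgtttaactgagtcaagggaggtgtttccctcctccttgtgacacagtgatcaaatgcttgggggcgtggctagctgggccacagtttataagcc
Apobec3: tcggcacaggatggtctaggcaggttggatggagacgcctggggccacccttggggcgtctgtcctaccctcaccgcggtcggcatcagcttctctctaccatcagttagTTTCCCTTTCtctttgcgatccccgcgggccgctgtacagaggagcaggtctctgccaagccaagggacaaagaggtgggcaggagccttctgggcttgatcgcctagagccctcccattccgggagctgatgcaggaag
Samhd1: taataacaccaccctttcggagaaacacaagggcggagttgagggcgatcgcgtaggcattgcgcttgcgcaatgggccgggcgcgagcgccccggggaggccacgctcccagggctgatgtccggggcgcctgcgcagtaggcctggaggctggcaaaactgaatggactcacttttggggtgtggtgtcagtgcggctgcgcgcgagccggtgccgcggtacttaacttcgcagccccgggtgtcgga

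In Bst2 the matches GAAAATGAAA and GAAACTGAAA began 130 and 124 bases before the start and overlapped each other. Rsad2 had TTTCATTTTC, the core on the opposite strand, from 120 bases before the start, and Apobec3 had TTTCCCTTTC from 140 bases before it. Bst2 thus had 2 overlapping matches and the others 1 each. A gamma-activated sequence (GAS) palindrome, searched as TTCNNNGAA, occurred in 2 windows, as TTCCAGGAA in Bst2, overlapping its first ISRE match, and as TTCGGAGAA in Samhd1, against 8.30% of all windows. Genes without an ISRE match in their windows were Samhd1, Trex1, Mov10, Zc3hav1 and Trim25. Of these, Zc3hav1 and Trim25 passed the size rule and the others did not, while Apobec3, with a match, did not pass it. The other Apobec3 window, set on a start at 79895023, held no match. The Zc3hav1 window is set on the start of transcript NM_028864, 38354603. Its other transcript, NM_028421, starts at 38354273, and no window was set on that start. A match is a string of letters and not a measured binding site.

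The windows also differed in CpG content, the substrate of the targeted enzymes. The ratio of observed to expected CpG had a median of 0.38 over all windows, with quartiles at 0.18 and 0.75. Samhd1 had the most CpG-rich window of the group, with 29 CpG sites and a ratio of 0.91, followed by Zc3hav1 with 20 sites and 0.80 and Trim25 with 18 sites and 0.62. Bst2 stood at 0.52 with 11 sites, the Apobec3 windows at 0.47 and 0.23, those of Mov10 at 0.45 and 0.35, those of Trex1 at 0.30 and 0.20, and Rsad2 at 0.29 with 6 sites. Genes past and not past the size rule described below thus both had windows at the CpG-rich and the CpG-poor end. Methylation itself was not measured in these data.

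**Figure D1:**
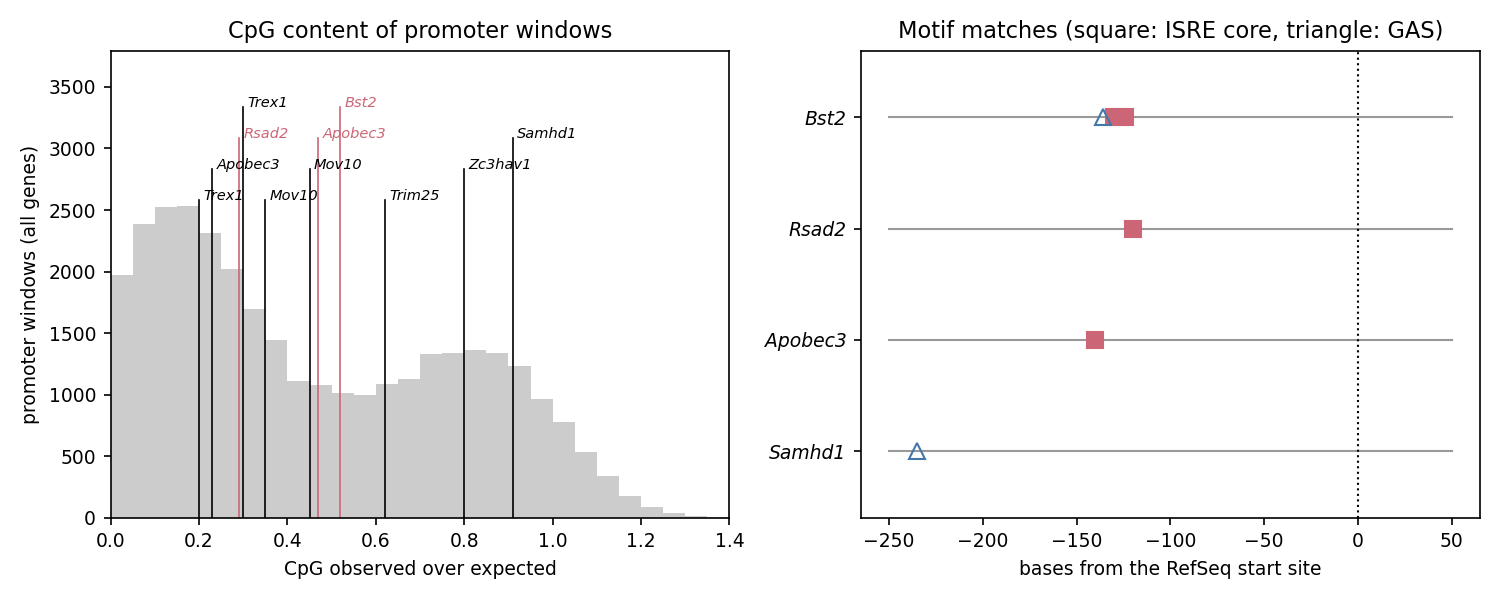
Left, the ratio of observed to expected CpG in all RefSeq promoter windows (grey, number of windows) with the 11 windows of the restriction factor genes as lines (red, with an ISRE core match). Right, positions of motif matches in bases from the start site; the ISRE matches of Bst2, Rsad2 and Apobec3 lie 120 to 140 bases before the start.

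Of the 10 restriction factor genes, 9 were measured and Mx1 stayed under 1 FPKM in both libraries. By the size rule 5 of the 9 were higher in the mutant library (Bst2, Rsad2, Zc3hav1, Mx2 and Trim25) and 0 were lower, where 1.84% of 13280 measured genes were higher and 0.648% lower. A log2 ratio of at least 2 was reached by 2 of the 9, Bst2 and Rsad2, and by 0.602% of all measured genes. The median log2 ratio was 1.03 for the 9 genes and 0.00 for all measured genes. Since a gene that is low in the control is measured only through a high mutant value, as Rsad2, Zc3hav1, Mx2 and Apobec3 were, these counts describe the group and test nothing. In the authors' deposited table only 1 of the 17 member transcript rows with status OK carries the significance mark, that of Bst2 with a q-value of 0.031, against 0.353% of all 19556 such rows. That comparison too rests on 1 library per group.

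The summed level of the 10 genes was 37.9 FPKM without Cre and 106 FPKM with Cre. Bst2 accounted for 68.0% of that difference, and without it the sums were 35.6 and 57.2 FPKM. In the control library Trex1 and Samhd1 together made up 72.0% of the sum and Bst2 6.20%, while in the mutant Bst2 made up 45.8% and Trex1 with Samhd1 27.9%. The genes lie on 9 chromosomes, and only Mx1 and Mx2 share 1, chromosome 16.

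**Figure D2:**
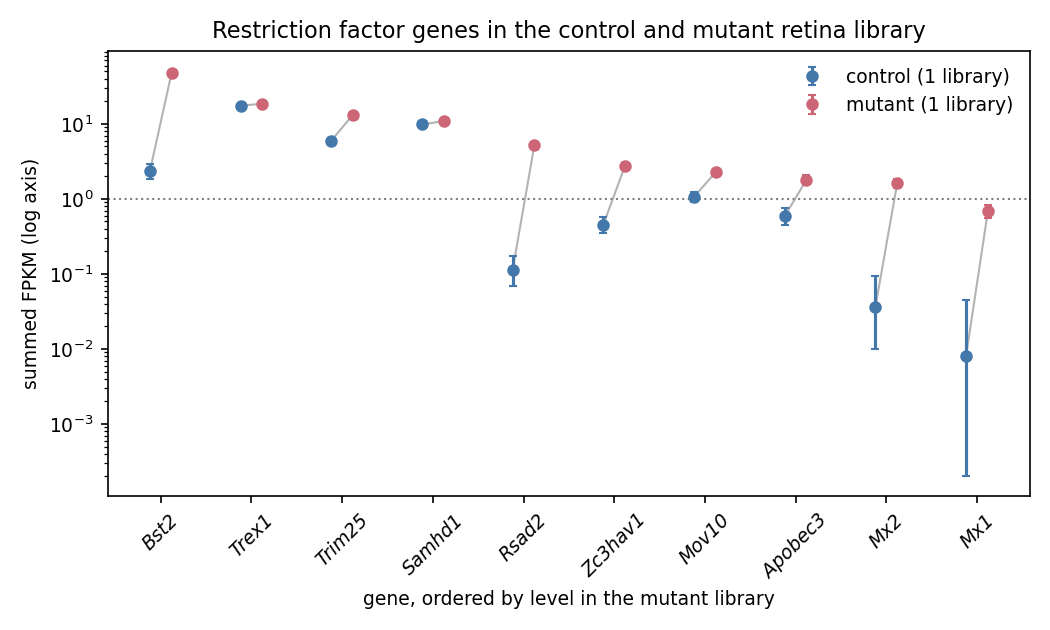
Summed FPKM (log axis) of each restriction factor gene in the control (blue) and mutant (red) library, with 95% counting intervals and the measured limit of 1 FPKM dotted. Bst2, Rsad2, Mx2 and Mx1 show wide gaps, and Trex1 and Samhd1 lie nearly level.

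**Figure D3:**
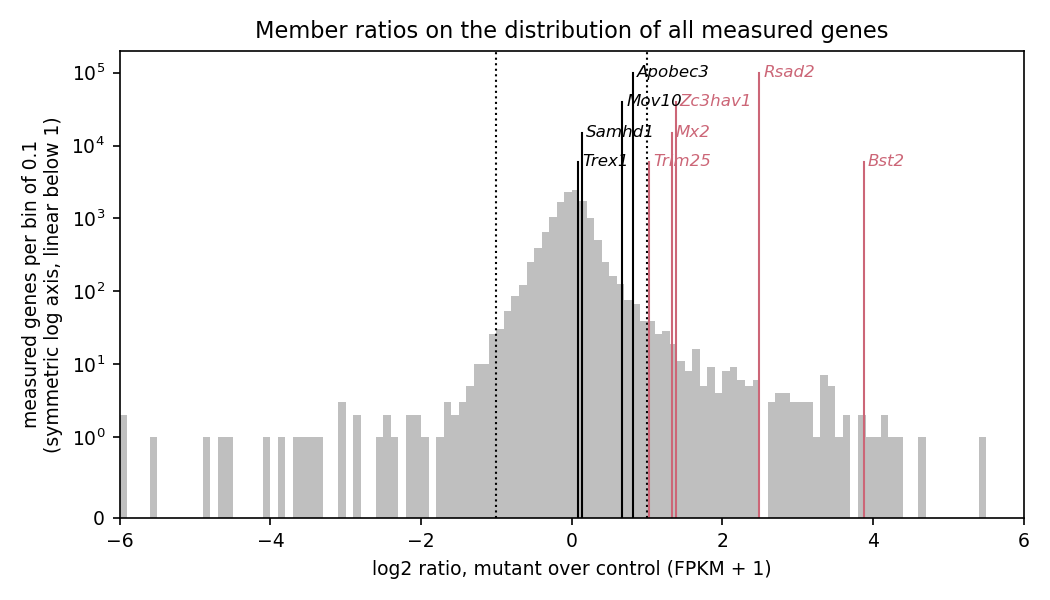
Log2 ratios of mutant over control for all 13280 measured genes (grey, genes per bin on a symmetric log axis) with the 9 measured restriction factor genes as lines. Dotted lines mark the size rule, and the 5 genes past it are red.

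Bst2 encodes tetherin, a membrane protein that ties budding enveloped particles to the cell they leave. It lies at chr8:71534255-71537456 (minus strand, GRCm38) and has a single transcript row. It stood at 2.35 FPKM in the control library and 48.4 FPKM in the mutant, 20.6-fold higher (16.3 to 26.4), on about 73 and 1740 fragments. Its log2 ratio of 3.88 ranked 9 among the 13280 measured genes. In the control it was number 4 of the 10 genes by level, and in the mutant number 1.

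Zc3hav1 and Trim25 work together: Zc3hav1 encodes ZAP, which binds CpG-rich foreign RNA and directs it to decay, and Trim25 encodes a ubiquitin ligase that is its cofactor and also acts on the RNA sensor RIG-I. Zc3hav1 (chr6:38305286-38354603, minus) had 0.454 FPKM without Cre and 2.78 with Cre, 6.14-fold higher (4.77 to 7.97), with a log2 ratio of 1.38 and rank 138. Trim25 (chr11:88999376-89020293, plus) had 6.00 and 13.3 FPKM, 2.21-fold higher (2.09 to 2.35). Its log2 ratio of 1.03 is just past the size rule, and the counting range of that ratio, 0.95 to 1.11, spans the limit of 1. The cofactor was thus the more abundant of the pair in both libraries, and ZAP differed by the larger factor. Both transcripts of Zc3hav1 were higher: NM_028421, with 12 exons, had 0.307 and 1.71 FPKM, and NM_028864, with 9, had 0.146 and 1.07. The share of NM_028421 was 67.7% without Cre and 61.4% with Cre.

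Rsad2 encodes viperin, a radical enzyme that makes a chain-terminating nucleotide. It lies at chr12:26442746-26456452 (minus) with 1 transcript row. Rsad2 stood at 0.114 FPKM without Cre, on about 20 fragments, and at 5.26 FPKM in the mutant, on about 1070, which is 46.2-fold higher (29.8 to 76.0). Its log2 ratio of 2.49 ranked 48. Its place among the 10 genes was 8 in the control order and 5 in the mutant order. Cmpk2, which encodes a nucleotide kinase that supplies its substrate, had 5.63 and 11.5 FPKM and a log2 ratio of 0.92, under the size rule.

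Mx1 and Mx2 encode dynamin-like GTPases that block viral nucleocapsids, and both are known to be defective in C57BL/6 and many other laboratory strains. RefSeq's gene table for GRCm38.p6 lists both as transcribed pseudogenes, whereas GENCODE M21 lists Mx1 as protein coding and Mx2 as a polymorphic pseudogene. Mx2 (chr16:97535308-97560900, plus) had 0.0365 FPKM without Cre, on about 4 fragments, and 1.61 in the mutant, on about 204, a ratio of 44.0 (17.0 to 163). Mx1 (chr16:97447035-97462907, minus) had 0.00812 FPKM on about 1 fragment and 0.681 FPKM on about 97, a ratio of 83.9 (14.7 to 3346). Both ratios rest on a control value of very few fragments, and Mx1 did not reach 1 FPKM in either library. In the mutant nearly all of the Mx2 signal was on the non-coding model NR_003508 (1.61 FPKM) and almost none on NM_013606 (2.01e-05 FPKM), models with 14 exons each and lengths of 2421 and 2417 bases in that order. The Mx1 signal in the mutant was divided between NM_010846 (0.372) and the non-coding NR_003520 (0.310). How fragments were divided between the models of these genes is uncertain.

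Apobec3 encodes a cytidine deaminase that is packed into retroviral particles and mutates reverse transcripts. It lies at chr15:79891659-79915906 (plus) and had 0.589 FPKM without Cre and 1.80 with Cre, 3.06-fold higher (2.26 to 4.01). Its log2 ratio of 0.82 ranked 335 and did not reach the size rule. The higher value was not shared by both transcripts. NM_030255, which has 8 exons, had 0.134 FPKM without Cre and 1.41 with Cre, and NM_001160415, which has 9, had 0.454 and 0.391. No counting interval was computed for single transcripts, so the small gap of NM_001160415 is not shown to be a decrease. The form without the extra exon therefore made up 22.8% of the gene without Cre and 78.3% with Cre. The transcripts start at the same base, downstream of the ISRE match printed above, and differ by exon 5 alone. That exon is 99 bases long, coding throughout and a whole number of codons, and lies at chr15:79899020-79899118. It is shown because it is the sole difference in sequence between the models whose values part (GENCODE M21, GRCm38).

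Apobec3 exon 5: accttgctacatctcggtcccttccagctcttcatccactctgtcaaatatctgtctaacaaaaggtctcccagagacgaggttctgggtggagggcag

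At these levels, 65 fragments without Cre and 225 with Cre over the whole gene, only those that touch exon 5 or its junctions tell the forms apart, so the shares are less certain than the sum. Apobec3 shares sequence positions with D730005E14Rik (0.00604 and 0.00525 FPKM) and, on the opposite strand, Cbx7 (12.7 and 9.30 FPKM). The strand setting of the counting is not known from the labels.

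Mov10 encodes an RNA helicase that restricts retroviruses and LINE-1 retrotransposition. It lies at chr3:104794836-104818563 (minus) and had 1.06 FPKM without Cre and 2.29 with Cre, 2.15-fold higher (1.77 to 2.54). Its log2 ratio was 0.67, under the size rule, at rank 458. Its transcripts start at 2 sites 258 bases apart. The transcript from the upstream site, NM_001163440, had 0.555 FPKM without Cre and 0.369 with Cre. The models linked to the downstream site, NM_008619 and NM_001163441, together had 0.507 and 1.92 FPKM. NM_001163441 was near 0 in the control (0.00016 FPKM) and had 0.711 FPKM in the mutant, whereas NM_008619 had 0.507 and 1.21. The 2 models link to the same GENCODE transcript, so their separate values are uncertain and the sum by start site is the safer reading. Neither promoter window of Mov10 held an ISRE core.

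**Figure D4:**
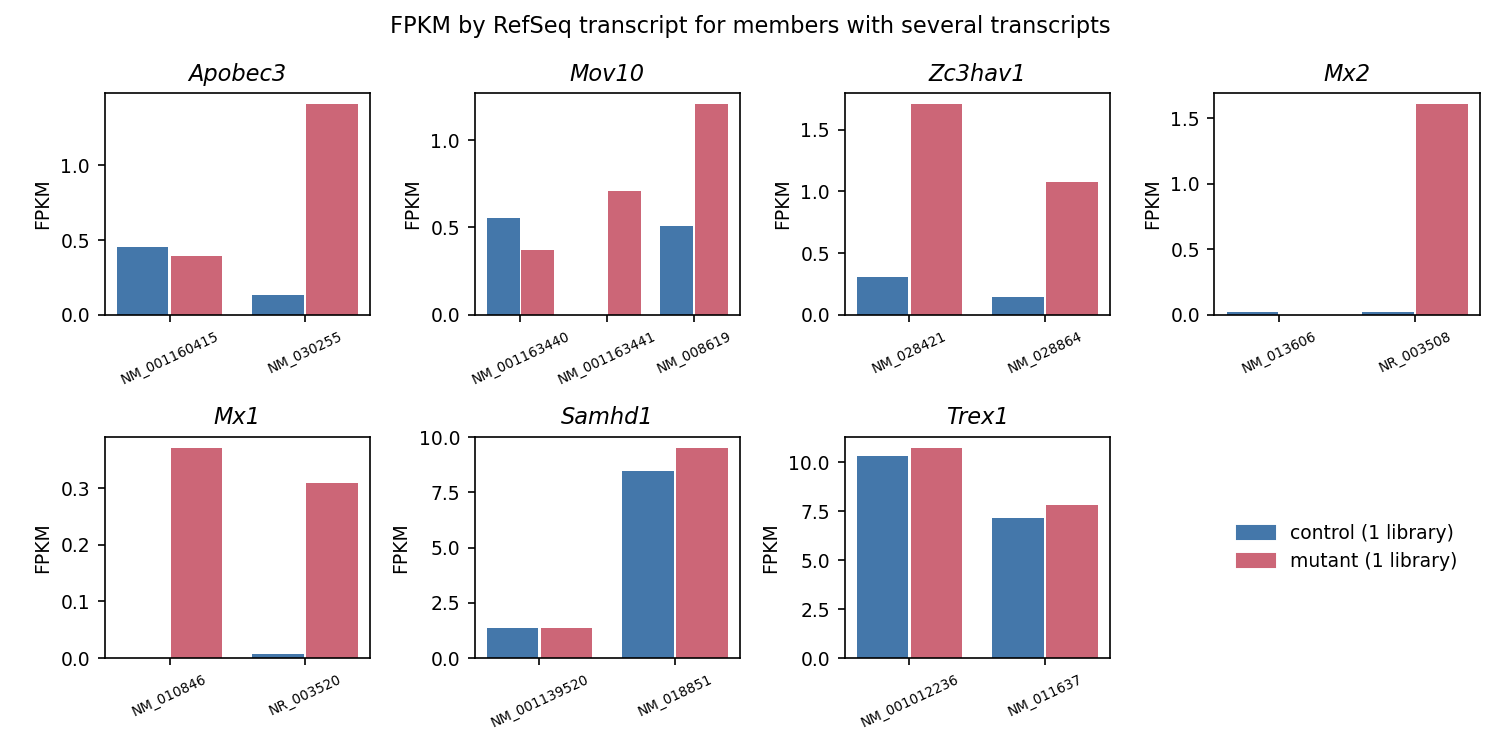
FPKM of each RefSeq transcript of the 7 genes with several transcripts, in the control (blue) and mutant (red) library, with a separate linear axis from 0 for each gene. In Apobec3 and Mov10 some transcripts are higher in the mutant and others have a similar or somewhat lower value, while both transcripts of Zc3hav1 are higher. Those of Samhd1 and Trex1 lie nearly level.

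Samhd1 and Trex1 remove the substrates of innate sensing rather than blocking particles. Samhd1 encodes a dNTP triphosphohydrolase that limits reverse transcription, and Trex1 encodes the main cytosolic DNA exonuclease. Loss of either is known to cause an interferon response. Samhd1 (chr2:157097533-157135265, minus) had 9.82 FPKM without Cre and 10.9 with Cre, a ratio of 1.11 (1.05 to 1.19) and a log2 ratio of 0.14. Trex1 (chr9:109057933-109059734, minus) had 17.5 and 18.6 FPKM, a ratio of 1.06 (0.967 to 1.17) and a log2 ratio of 0.09. The log2 ratio of Trex1 and that of Samhd1 lay inside the middle range of measured genes, whose quartiles were -0.158 and 0.146. The interval of the Trex1 ratio includes 1, and that of Samhd1 lies just above it. Within each gene the split was also similar: NM_018851 made up 86.2% of Samhd1 without Cre and 87.4% with Cre, and NM_001012236 made up 59.0% and 57.8% of Trex1. Trex1 lies inside the annotated span of Atrip on the same strand (18.3 and 17.2 FPKM), so fragments of the pair may not be fully separated.

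The order of levels, compared per length as FPKM, differed between the libraries. In the control the order was Trex1, Samhd1, Trim25, Bst2, Mov10, Apobec3, Zc3hav1, Rsad2, Mx2 and Mx1, and neighbours whose counting intervals overlapped were Apobec3 with Zc3hav1, Rsad2 with Mx2, and Mx2 with Mx1. In the mutant the order was Bst2, Trex1, Trim25, Samhd1, Rsad2, Zc3hav1, Mov10, Apobec3, Mx2 and Mx1, and the overlapping neighbours were Apobec3 and Mx2.

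Partners and relatives of these genes were counted in lists of related genes. For comparison with each list, 1.84% of all measured genes were higher and 0.648% lower. As with the members, a gene under 1 FPKM in the control was measured only through its mutant value. The counts therefore describe the lists and test nothing. Of 21 measured cofactors and partners, 2 were higher and 0 lower, and the median log2 ratio was 0.07. The higher ones were Ddx58, the RIG-I sensor that Trim25 acts on (1.16 and 6.84 FPKM), and Parp12, a relative of ZAP (3.33 and 12.3). Rnf135, another ligase for RIG-I, had 1.52 and 3.67 FPKM, under the size rule. Among the ZAP cofactors, Khnyn had 10.7 FPKM without Cre and 8.76 with Cre, and N4bp1 had 11.2 and 9.73. The RNA decay factors Xrn1 (9.17 and 8.01 FPKM) and Dcp2 (11.6 and 10.8) were likewise between the limits.

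Of 30 measured other restriction factors, 10 were higher and 0 lower, and the median log2 ratio was 0.57. The leading ones were Gbp2, a guanylate-binding GTPase gene (0.431 and 13.2 FPKM), Lgals3bp, which encodes a secreted glycoprotein (4.22 and 35.8), Eif2ak2, the RNA-activated kinase PKR (1.21 and 6.97), and Trim30a (0.228 and 2.67). Gbp2 and Trim30a, like most of the higher genes of this list, were under 1 FPKM without Cre and were measured only through their mutant value. Some factors of the same list that were abundant in both libraries lay near a ratio of 1: the viral entry inhibitor gene Serinc3 had 69.7 and 71.0 FPKM, Serinc5 16.6 and 16.4, and the RNA editing gene Adar 27.6 and 29.8. Others of similar level were somewhat higher in the mutant, under the size rule: Cnp had 15.6 and 22.5 FPKM and Daxx 21.5 and 27.9. Fv1, a mouse gene derived from a retroviral gag that blocks murine leukaemia virus, had 6.17 FPKM without Cre and 4.67 with Cre.

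The next list held genes that clear nucleic acids, including those mutated with TREX1 and SAMHD1 in Aicardi-Goutieres syndrome. Of 11 measured, 1 was higher, the RNA sensor gene Ifih1 (0.808 and 5.15 FPKM), and 0 were lower, the median log2 ratio being 0.11. Rnaset2a of this list had 2.95 FPKM without Cre and 0.619 with Cre, a log2 ratio of -1.29. It had no row of status OK and was therefore not counted. The RNase H2 subunit genes Rnaseh2a (5.61 and 5.67 FPKM), Rnaseh2b (5.90 and 4.62) and Rnaseh2c (26.3 and 25.1) lay with Trex1 and Samhd1 in showing no difference past the size rule. Tmem173, which encodes the adaptor STING, had 0.462 and 1.12 FPKM. Of the genes of chromatin silencing at retroelements, 0 of 21 measured were higher or lower, the median log2 ratio being 0.02. A count of 0 in so short a list is near the shares over all measured genes, 1.84% and 0.648%. The list includes Trim28 (68.2 and 76.6 FPKM) and Setdb1 (13.2 and 14.0), the corepressor and methyltransferase that zinc finger proteins recruit to proviruses.

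Of 15 measured genes for interferon receptors and signalling, 6 were higher and 0 lower, the median log2 ratio being 0.26. The higher ones included Usp18 (0.358 and 12.5 FPKM), a negative regulator, and the transcription factor genes Irf9 (5.44 and 34.5) and Irf7 (5.64 and 22.5). The receptor gene Ifnar1 had 12.7 FPKM in both libraries, and Ifngr1 18.9 and 18.5. Several of these signalling genes are themselves known interferon targets, as are several of the restriction factor genes described above. Whether interferon acted on any of them in these libraries was not tested.

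**Figure D5:**
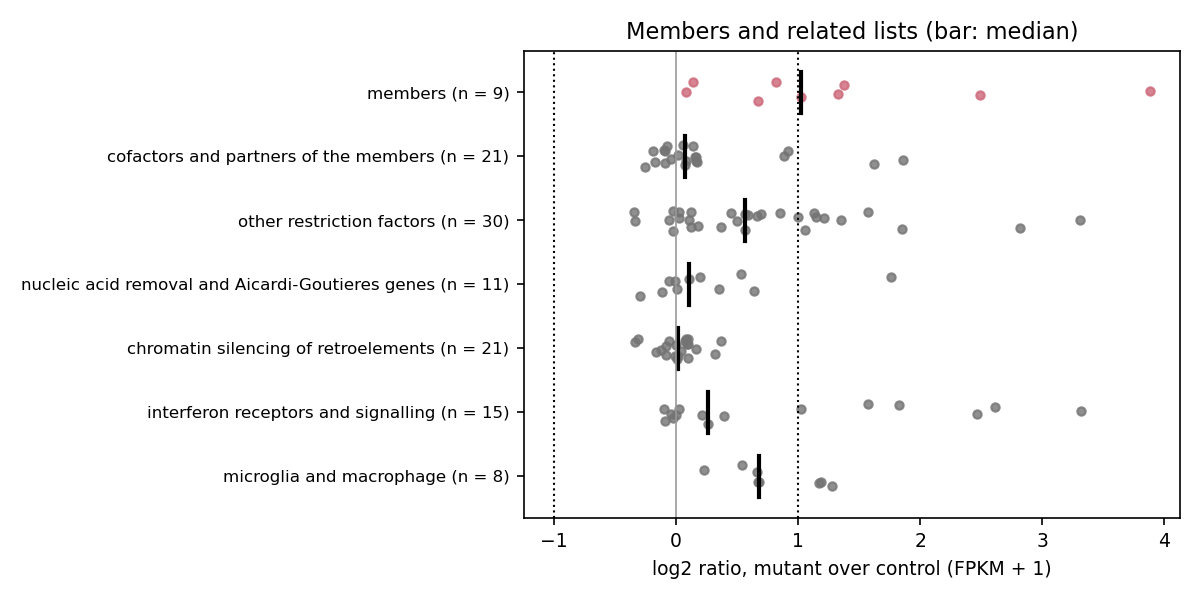
Log2 ratios (mutant over control) of the measured restriction factor genes and of measured genes in 6 related lists, 1 point per gene, with the median as a bar and the size rule dotted. The restriction factors, the other restriction factors, the interferon signalling genes and the microglia and macrophage markers spread to the right, and the silencing genes lie around 0.

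Markers of other cells were read beside these values. Of 14 microglia and macrophage markers found, 8 were measured. The size rule called 3 of them higher and 0 lower, beside 1.84% and 0.648% of all measured genes. The median ratio of the 8 was 0.68 on the log2 scale, and the summed level of all 14 was 31.2 FPKM without Cre and 61.4 with Cre. Csf1r had 4.35 and 11.2 FPKM, Cx3cr1 2.03 and 5.81, Aif1 0.722 and 3.18 and Tmem119 1.19 and 2.52. Aif1 was among those measured only through the mutant value. The 6 markers under 1 FPKM in both libraries also had higher values in the mutant, among them Mrc1 (0.0879 and 0.526 FPKM), Ms4a7 (0.0728 and 0.411) and Ly6c2 (listed at 0 without Cre, 0.278 FPKM with Cre). Their part in the results was not tested, and in bulk tissue a different number of cells of a type and a different amount of RNA per cell cannot be told apart. T cell markers were listed at 0 or under 1 FPKM: of 5 found, Cd3d was 0 in both libraries and Cd8a, the highest, had 0.607 and 0.872 FPKM. All 4 B cell, 2 NK cell and 4 neutrophil markers in the table were also under 1 FPKM in both libraries, their sums reaching at most 0.368 FPKM. Endothelial and pericyte markers, 7 measured, had 0 past the size rule.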

How the data were processed

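The submitters' processing notes name TopHat2 2.0.8, Cuffdiff 2.1.1 and the mouse build mm10. Gene annotation, read layout and strand setting are unnamed there and not given elsewhere in the sources used here. Both deposited tables hold FPKM per RefSeq transcript for each library, per the file headers, with the authors' log2 fold change, test statistic (a score), p-value and q-value. Of these comparisons only the authors' significance mark and 1 q-value are quoted. FPKM was summed over the transcripts of a symbol, and genes with at least 1 row of status OK and none failed or with excessive data were used (15318 genes).

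Log2 ratios used a pseudocount of 1 FPKM. No test was run. Fragments were recovered from the steps of low values in genes with 1 transcript, 3000 bases or longer: 155 of 204 control values (76.0%) and 144 of 197 mutant values (73.1%) were whole multiples within 10% of a step, shares that the fitted step and fragment length maximise. Fold intervals are exact conditional binomial and level intervals exact Poisson. RefSeq models were linked to GENCODE M21 for lengths and coordinates on GRCm38, the assembly that mm10 denotes. NM_010846 had no link, and the length of NR_003520 was used for it. Members and lists were chosen with earlier results of these data known. Named genes are the 10 members, the targeted genes, up to 4 per list with the largest ratios, and cell type markers. Some genes that this rule names are not reported here. Khnyn, N4bp1, Xrn1, Dcp2, Serinc3, Serinc5, Adar, Fv1, Trim28, Setdb1, the RNase H2 genes, Ifnar1, Ifngr1, Tex19.1, Asz1, the interferon genes and those overlapping members were named for their role, after their values were seen. Cnp, Daxx and Rnaset2a were named for their values. The size rule and the step fit were tested on simulated data with known answers. Python 3.11.15, pandas 2.3.3, numpy 2.4.6, scipy 1.17.1 and matplotlib 3.10.9 were used.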

Additional observations from a re-analysis of the deposited data

How the results depend on the processing

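The count of 5 higher genes and the median log2 ratio of 1.03 depended on how low values were treated. With a pseudocount of 0.1 FPKM the median was 1.47 and Apobec3 and Mov10 also passed (7 higher, 2.94% of all measured genes), and with 5 FPKM it was 0.39 with 2 higher, Bst2 and Rsad2 (0.693%). With no filter on low values Mx1 entered at 0.74 and the median was 0.92. Among genes of at least 5 FPKM in 1 library, 5 members were left and 3 were higher (1.54% of all such genes). A size rule of 2 left 2 (0.602%). The count with a single highest transcript was 6, Apobec3 being added (1.89%). The second deposited table came from the same libraries with control values scaled by 0.972 and mutant values by 1.01, and it gave 5 higher genes (2.02%). Keeping every status also gave 5 (1.86%). Rescaling to a median of 0 had a factor of 1 and so only repeated the main setting (1.84%). The log2 ratio of each of the 9 measured members stayed above 0 in every setting in which it was computed. A pseudocount, a filter or a size rule cannot change that sign, so in most settings this was fixed in advance. No paired analysis was possible because each group has 1 library. Depth limits Mx1 and Mx2 in the control, at about 1 and 4 fragments.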

Other observations

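Of 19 interferon genes found in the table, 16 were listed at 0 in both libraries, among them Ifnb1 and the listed Ifna genes. The other 3, Ifnk, Ifnz and Ifng, had at most 0.0475 FPKM in the control and were listed at 0 in the mutant. For Ifnb1, a count of 0 allows up to 0.103 FPKM without Cre and 0.0893 with Cre (3 fragments, counting error only), so low levels were not detectable at this depth.

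Genes derived from retroviruses and retrotransposons, and genes that guard against them in the germline, were mostly low. Of 12 found, 4 were measured and 0 passed the size rule in either direction: Peg10 (2.37 and 2.51 FPKM), Pnma1 (1.25 and 0.987), Pnma2 (3.83 and 3.16) and Fv1, given above. The germline genes Tex19.1 and Asz1 were listed at 0 in the control and had 0.403 and 0.302 FPKM in the mutant. Transcripts of the retroelements themselves have no rows of their own in the lists used here.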
